A study of Homo sapiens with 12 samples.

Results

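HepG2 is a human hepatoblastoma-derived cell line that keeps many functions of hepatocytes, among them the secretion of plasma proteins. The comparison described here set HepG2 cells of the label ATP7B KO against wild type HepG2 cells, both without added copper. Its members are the 6 libraries of those 2 groups, 3 per group, out of 12 in the series, and they were chosen by their titles alone. The other 6 libraries, 3 per genotype, came from cells kept in copper for 24 h at a dose that the labels do not give. They give a second view of the same genotype difference. They were also part of the main fit, and so of the filter, scaling and estimate of spread behind the untreated p-values. All 12 libraries were made from 100 ng of total RNA with a kit that sequences the 3' end of each mRNA, in single reads of 75 bases. The labels name a single KO line and call the replicates biological, without saying whether these were separate cultures or how the line was edited. A difference caused by the ATP7B mutation and one particular to that line therefore cannot be told apart, and the p-values measure the spread between these libraries only.

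ATP7B is a copper-transporting ATPase of hepatocytes that loads copper onto ceruloplasmin in the secretory pathway and moves to vesicles to export copper into bile. Mutations in it cause Wilson disease, in which copper builds up in the liver. Copper in excess is bound by metallothioneins, and the title of the series names autophagy as the process under study.

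The 6 libraries held between 976658 and 3829151 counts, and the KO libraries were shallower, with 1443372, 976658 and 3277087 counts for libraries 1, 2 and 3. The KO libraries also differed among themselves: their log2 CPM (counts per 1000000 counts) correlated at 0.927 between libraries 1 and 2, but at 0.824 and 0.798 between either of these and library 3, against 0.9855 to 0.9877 among the wild type libraries. KO libraries 1 and 2 stood apart from all others on the first principal component, whereas KO library 3 lay near the wild type libraries. KO library 3 correlated at 0.9236 to 0.9255 with the untreated wild type libraries, above its values with KO libraries 1 and 2. KO libraries 1 and 2 correlated at 0.8475 and 0.821 with the wild type copper library 1, also above their values with KO library 3. Mitochondrially encoded genes took 5.72%, 8.71% and 6.56% of the counts in the KO libraries and 2.86% to 3.69% in the wild type. Markers of hepatocytes summed to 8884 to 10600 CPM in the KO and 18480 to 19260 CPM in the wild type libraries. The members did not all fall: of these 10 markers 3 had a positive log2 fold change, and for 2 all KO libraries lay above all wild type libraries. Of the markers of other cell types, KDR, TEK, CD3E, MS4A1, KRT7, CFTR and TP63 had no count in any of the 6, and the leukocyte sum, nearly all of it lysozyme (LYZ), was 1348 to 1469 CPM in wild type and 209 to 428 CPM in KO libraries. The biliary sum was 511 to 545 CPM in wild type and 791 to 1160 CPM in KO libraries, and that of fibroblasts 53.1 to 60.4 and 52.7 to 111 CPM. In the 6 libraries the neuronal sum was 11.1 to 21.5 CPM, and the endothelial and squamous sums at most 10.2 and 3.93 CPM. What part these differences have in the results below was not tested. In bulk RNA, fewer cells of a kind and less RNA per cell cannot be told apart. Values given without the KO libraries 1 and 2 and the wild type copper library 1, which stood apart, are named as such.

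ATP7B mRNA itself was not called different. It stood at 12.7, 13.1 and 12.4 CPM in the wild type libraries 1, 2 and 3 and at 9.01, 2.05 and 11.6 CPM in the KO libraries. All 3 KO values lay under the wild type values, but the KO library 3 was close to them, and the log2 fold change was -0.75 ± 0.38 (SE, n = 3 per group; adjusted p = 0.148, edgeR's quasi-likelihood test with Benjamini-Hochberg adjustment). With the KO library 3 left out it was -1.10 with an adjusted p of 0.0411. In the copper libraries the fold change was 0.15 ± 0.44 (adjusted p = 0.856). A 3' tag of a transcript that is still made does not check an edit elsewhere in the gene.

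Across the 11051 genes tested, 3521 (31.9%) were called at an adjusted p under 0.05, of which 1975 (17.9%) were higher and 1546 (14%) lower in the KO cells. Counts of called genes in the lists below are to be read against these shares of all tested genes. Among others, the lists of zinc transporters (16.7%), lysosome (17.1%), mitosis (19.4%) and proteasome (20%) had smaller shares called. Those of apoptosis (36.4%), NF-kappaB targets (35.7%) and TGF-beta, YAP and mesenchymal genes (35.7%) were near the share of all tested genes. Of the called genes 401 were at least 4-fold higher and 245 at least 4-fold lower. The 3 KO and 3 wild type values did not overlap for 4945 genes (44.7%), with the KO values higher for 2838 (25.7%) and lower for 2107 (19.1%). Among the called genes this held for 1858 of the higher and 1494 of the lower ones. A lack of overlap given below for a called gene therefore adds little to its call. The call held in each of 16 alternative analyses for 840 genes (7.6%), 488 higher and 352 lower, and the text states for the main groups how many genes were among these.

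The genes with the largest falls, chosen among called genes whose groups did not overlap, ranged from high to low levels in the wild type cells. Glypican 3 (GPC3), a heparan sulphate proteoglycan of the cell surface that marks hepatocellular carcinoma, stood at 1792, 1738 and 1887 CPM in the wild type libraries and at 37.4, 31.7 and 28.1 CPM in the KO libraries. The groups were far apart and the 3 KO libraries close together, with a log2 fold change of -5.93 ± 0.24 (adjusted p = 7.02e-08). IGFBP1, which binds insulin-like growth factors in plasma, stood at 5259, 5392 and 4749 CPM and 60.3, 47.1 and 376 CPM, a log2 fold change of -5.15 ± 0.72 (adjusted p = 0.000605). The KO library 3 kept the most IGFBP1, and still lay far below every wild type library. Endothelin 1 (EDN1), a vasoconstrictor peptide, had 14.8, 16.2 and 15.7 CPM in the wild type and 0, 0 and 0.61 CPM in the KO libraries, which gave a pooled ratio of wild type to KO of 44.3 (95% counting interval 12.1 to 369). It was nearly absent from the KO libraries, 2 of which held no count.

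Other genes had no count left in the KO libraries. EGLN3, a prolyl hydroxylase that marks the HIF transcription factors for degradation, had 22.4, 17 and 24.1 CPM in the wild type libraries and no count in any KO library, so that it was at least 40.1-fold lower, taking 3 counts over the KO group as the limit. PLCXD3, a phospholipase C domain protein, was likewise at least 17.3-fold lower, FXYD3, a regulator of the sodium pump, at least 13.2-fold, DIPK1C at least 10.2-fold and PERM1 at least 9.68-fold. None of these 5 genes had a count in a KO library. BEX1 had 35.1, 37.1 and 35.9 CPM in wild type and 0, 0 and 0.915 CPM in KO, and ROBO4, a receptor of the roundabout family, 12.7, 13.8 and 12.9 CPM and 0, 0 and 0.305 CPM. TNNI2, a troponin of fast muscle, fell by 5.25 on the log2 scale, from 59, 52 and 64.3 CPM to 3.46, 1.02 and 0.915 CPM. The lower genes also held CDCA7L, RHBDD1 and PARD3B, each with 1 count in the KO group. Among genes that fell in both media, TNS1, which links integrins to actin, had a log2 fold change of -4.33 ± 0.34, and the nucleoside transporter SLC28A1 had 2 counts in the KO group.

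On the other side stood genes close to silent in wild type cells. RNF157, a RING finger ubiquitin ligase, had 1.85, 1.57 and 1.12 CPM in the wild type and 297, 263 and 179 CPM in the KO libraries, a log2 fold change of 7.18 ± 0.51 (adjusted p = 8.75e-06). The secreted phospholipase PLA2G2A had 3.69, 4.18 and 2.53 CPM and 328, 261 and 405 CPM (log2 fold change 6.43 ± 0.30, adjusted p = 1.91e-07). For both genes the lowest KO library lay far above the highest wild type library, though a lack of overlap was required for their choice. LINC01996, with no count in wild type and 18.7, 21.5 and 6.41 CPM in KO, was at least 45.2-fold higher. PRKCH, an isoform of protein kinase C, was at least 18.3-fold higher, and the myosin pseudogene MYH16 at least 17-fold.

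Embryonic globin (HBE1) rose by a log2 fold change of 4.77 ± 0.39, from 2.9, 4.18 and 0.842 CPM to 81.1, 66.6 and 94 CPM, and OR51B5, an odorant receptor gene that overlaps the globin locus, by 3.53 ± 0.58. Because the 2 transcription units overlap, their counts may share reads. NRGN, a calmodulin-binding protein, went from 2.9, 3.13 and 1.12 CPM to 96.3, 89.1 and 24.7 CPM, and GPX8, a peroxidase of the endoplasmic reticulum, from 0.527, 0.522 and 0.281 CPM to 13.9, 12.3 and 14.6 CPM. ARSI, an arylsulfatase, stood at 121, 122 and 34.8 CPM in the KO libraries against 1.58, 2.61 and 0.281 CPM. For NRGN and ARSI, as for TUBA4B, PRRG4 and MUC20, the KO library 3 was the lowest of the KO group, and for GPX8 the 3 were alike. OLFML1, SLFN5 and RNF157-AS1 completed the 15 genes with the largest rises; the last is antisense to RNF157, and whether the counting used strand is not stated in the labels, so the pair cannot be told apart. Genes called higher in both media included KITLG, the ligand of the receptor KIT (3.81 ± 0.47), MSRB3, a methionine sulfoxide reductase (3.51 ± 0.33), the ubiquitin-like UBD (3.34 ± 0.37), PCSK5, a proprotein convertase (from 1.58, 0.261 and 0.562 CPM to 10.4, 14.3 and 7.93 CPM) and WDR76 (3.30 ± 0.50). SYNPO, an actin-binding protein, had 3 counts in the wild type group, and its pooled ratio of KO to wild type was 21.6 (95% counting interval 6.77 to 110.0).

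**Figure D1:**
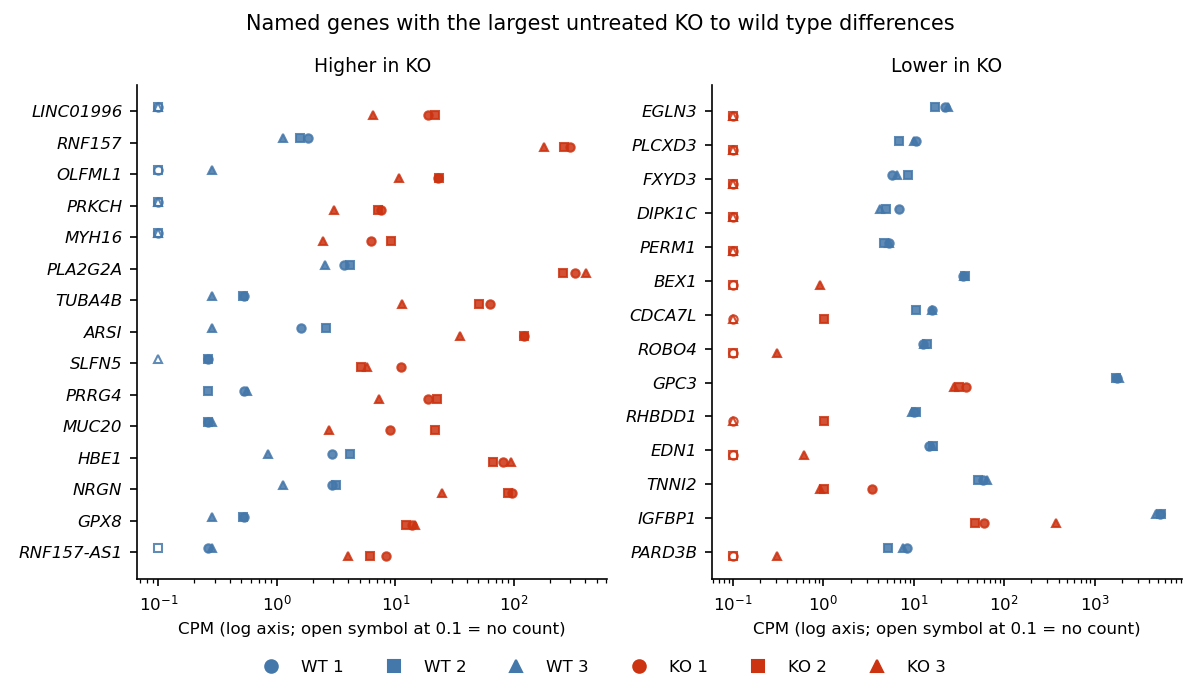
CPM per library (log axis) of the 15 genes with the largest rise and 14 of the 15 with the largest fall among called genes whose untreated groups do not overlap; blue symbols are wild type, red symbols KO, shapes give the replicate, and open symbols drawn at 0.1 stand for no count. GPC3 lies between 28.1 and 37.4 CPM in the KO libraries, and EGLN3 has no count there.

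Hypoxia-inducible factors (HIF) are degraded through VHL when oxygen is present, after prolyl hydroxylases of the EGLN family have modified them, and when stable they switch on genes of glycolysis, of blood vessel growth and of mitophagy. The hypoxia targets formed the list with the lowest median. Of 24 tested, 20 fell and 1 rose (VHL), and the median log2 fold change was -2.33 against -0.02 over all tested genes. The median was -2.75, -2.55 and -2.10 in KO libraries 1, 2 and 3, so that all 3 libraries showed it, and 16 of the 20 lower calls held in every alternative.

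BHLHE40, a transcriptional repressor, had 47.2, 40.2 and 46.9 CPM in wild type and 2.77, 2.05 and 2.75 CPM in KO libraries. BNIP3, a mitophagy receptor on the outer mitochondrial membrane, had 288, 308 and 339 CPM and 43.6, 57.3 and 62.6 CPM. P4HA1, a collagen prolyl hydroxylase, had 424, 437 and 395 CPM and 70.0, 66.6 and 106 CPM. In none of these 3 genes did the groups overlap, and the KO libraries lay close together for BHLHE40 and BNIP3. The log2 fold changes were -4.22 ± 0.31, -2.64 ± 0.20 and -2.49 ± 0.22 (adjusted p = 1.04e-05, 1.2e-05 and 2.95e-05). MXI1, an antagonist of MYC, fell from 77.8, 90.1 and 85.1 CPM to 8.31, 5.12 and 15 CPM (-3.17 ± 0.29, adjusted p = 4.32e-05). LOX, which cross-links collagen with a copper cofactor, fell from 63.5, 68.4 and 59.8 CPM to 2.77, 0 and 6.1 CPM, and BNIP3L, the second mitophagy receptor, from 134, 139 and 129 CPM to 6.24, 10.2 and 30.2 CPM.

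Other members of the list fell as well. Named after their values were seen, vascular endothelial growth factor (VEGFA) had a log2 fold change of -1.83 ± 0.29, erythropoietin (EPO) of -2.45 ± 0.42, and carbonic anhydrase 9 (CA9) of -4.08 ± 0.86. VEGFA was lowest in KO library 3, at 34.6, 33.8 and 16.5 CPM for the 3 libraries, while EPO and CA9 were highest there. Also named after their values were seen, HIF1A was not called (0.38 ± 0.23, adjusted p = 0.211), and VHL rose from 85.1, 87.5 and 81.4 CPM to 182, 127 and 126 CPM (0.66 ± 0.22, adjusted p = 0.042). The VHL call held in 9 of the 16 alternatives and was lost in the fit of the 6 untreated libraries alone (adjusted p = 0.0979).

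Because the hypoxia genes moved together, their promoters were searched for the core of the hypoxia response element, ACGTG or GCGTG on either strand, in RefSeq windows (GRCh38.p14) from 250 bases before to 50 after each start. Shown are 5 lower genes that hold a match before the start, in order of adjusted p, with the match nearest the start in capitals. Some genes were left out of this choice by their place in the genome. Lower genes with a match and a smaller adjusted p may therefore be missing. ANKRD37 was named after its values were seen.
BHLHE40: cacagggtagaaCACGTagctccaaccca
BNIP3: cacgcccctgcgCACGCgcaggccccaag
P4HA1: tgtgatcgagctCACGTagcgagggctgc
MXI1: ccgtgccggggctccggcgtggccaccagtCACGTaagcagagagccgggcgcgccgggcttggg
ANKRD37: cagtgtttgtgtACGTGcggccgtggcgg

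The BHLHE40 window is chr3:4979276-4979304 (plus strand), that of BNIP3 chr10:131982011-131982039 (minus) and that of P4HA1 chr10:73096936-73096964 (minus). The MXI1 window is chr10:110210088-110210152 (plus) and the ANKRD37 window chr4:185396686-185396714 (plus). The matches begin 149, 104, 86, 113 and 143 bases before the start in the order listed. A match stood in 15 of the 18 lower hypoxia genes with a window, in 52.4% of all genes with a window and in 71% of the tested genes that were not called. These counts describe letters, not binding. The core GCGTG can share bases with a metal response element core. The cores of the metal response element (TGCACNC or TGCGCNC), the antioxidant response element (TGACNNNGC) and the heat shock element (GAANNTTC) stood in 90, 49 and 13 of the 196 named genes with a window, or 45.9%, 25% and 6.63%, against 33.4%, 16.1% and 8.21% of all genes with a window and 46.1%, 19.7% and 6.4% of the tested genes that were not called.

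**Figure D2:**
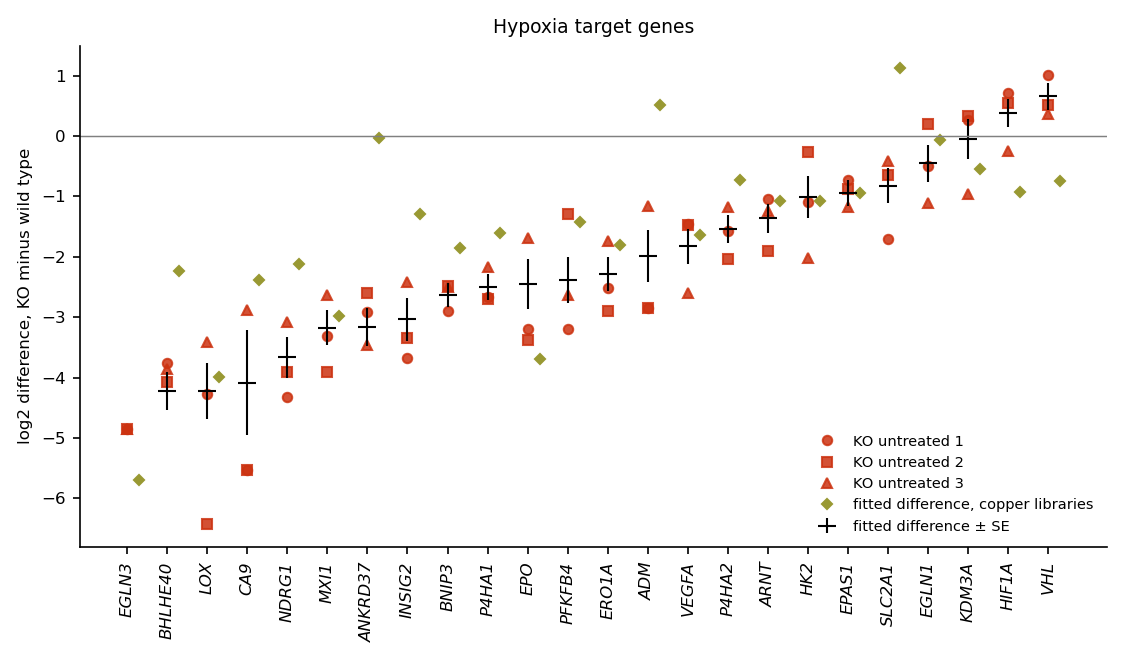
Log2 difference between KO and wild type for the 24 tested hypoxia targets, ordered by the fitted value: red symbols are single KO libraries minus the wild type mean of log2 CPM, black marks the fitted difference with its SE, and diamonds the fitted difference in the copper libraries. No fitted value is drawn for EGLN3 without copper, which had no KO count. The 3 KO libraries lie below 0 for 20 of the 24 genes.

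Genes of glycolysis, several of which are known HIF targets, fell too. Of 24 tested genes 15 fell and none rose, with a median of -0.92 and KO library medians of -1.28, -0.95 and -1.22, and 9 of the calls held in every alternative. Aldolase C (ALDOC) stood at 135, 138 and 142 CPM in wild type and 20.8, 13.3 and 17.4 CPM in KO libraries, a log2 fold change of -3.12 ± 0.23 (adjusted p = 9.06e-06). Lactate dehydrogenase A (LDHA) fell from 541, 573 and 524 CPM to 182, 183 and 247 CPM and enolase 1 (ENO1) from 2135, 2122 and 2185 CPM to 446, 356 and 882 CPM. PFKFB3, which makes the activator of phosphofructokinase, had 7.91, 11.8 and 11.8 CPM and 0.693, 1.02 and 2.44 CPM (-2.76 ± 0.37). In all 4 genes the highest KO library lay below the lowest wild type library, as in most genes called lower.

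The next 3 lists covered lipid metabolism, with shares called of 41.7%, 45.8% and 28% against 31.9% of all tested genes. In the list of fatty acid oxidation and PPARA targets 8 of 24 fell and 2 rose (median -0.44), in fatty acid and triglyceride synthesis 7 of 24 fell and 4 rose (median -0.06), and in cholesterol synthesis 5 of 25 fell and 2 rose (median -0.43). PLIN2, the coat protein of lipid droplets, went from 1928, 1792 and 1778 CPM to 551, 401 and 781 CPM (-1.80 ± 0.23, adjusted p = 0.000402). The acyl-CoA synthetases ACSL3 (-1.90 ± 0.18) and ACSL4 (-1.87 ± 0.32) fell, while ACSL1, of low level in wild type, rose (2.20 ± 0.43). ANGPTL4, an inhibitor of lipoprotein lipase, was at 46.7, 47.5 and 48 CPM in wild type and 0, 2.05 and 8.54 CPM in KO libraries. FDFT1, squalene synthase, fell by 1.78 on the log2 scale. The rises in these lists included NSDHL (1.97 ± 0.43), DGAT1, which makes triglycerides (1.60 ± 0.31), and the desaturase FADS1 (1.20 ± 0.25). For each of NSDHL, DGAT1 and FADS1 the KO library 3 was nearest to wild type.

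DNA replication genes moved the other way. Of 35 tested, 17 rose and none fell, with a median of 0.86 and KO library medians of 0.74, 0.72 and 0.85, and 8 of the calls held in every alternative. CDC6, which loads the replicative helicase, stood at 20.6, 20.9 and 21.3 CPM in wild type and 57.5, 43 and 72 CPM in KO libraries (1.34 ± 0.19, adjusted p = 0.00073). MCM10 went from 13.4, 15.1 and 16.3 CPM to 45.7, 55.3 and 39.4 CPM and POLE, the catalytic subunit of DNA polymerase epsilon, from 12.7, 9.4 and 10.7 CPM to 43, 59.4 and 29.9 CPM. No KO value of these 3 genes fell within the wild type range. GINS3, of the helicase complex, rose by 2.14 ± 0.34, but from under 3 CPM.

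Other cell cycle genes did not follow as a group. Of 31 mitosis genes 3 rose and 3 fell (median -0.27), among them the proliferation marker MKI67 (1.10 ± 0.21) and CENPF (0.84 ± 0.22) upward and BUB1 (-0.64 ± 0.17) and PTTG1 (-1.36 ± 0.45) downward. Cyclin D1 (CCND1), counted with the Wnt targets, of which 4 of 17 rose and none fell (median 0.23), went from 153, 141 and 128 CPM to 351, 387 and 499 CPM. Of 12 tested histone genes none rose and 2 fell, among them the linker histone H1-2 (-1.54 ± 0.21). The median of these 12 had the other sign at 0.83, with 0.95, 0.27 and -0.75 by KO library, and was -0.81 without the libraries that stood apart.

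The E2F factors drive many replication genes, and their promoters were searched for TTTCCCGC and TTTGGCGC on either strand. Shown are 4 risen genes that hold a match before the start, in order of adjusted p, with the match in capitals. The choice was limited by place in the genome as for the hypoxia genes, so others may be missing. POLA1, E2F2 and E2F1 were named after their values were seen.
POLE: tgggtgggagcGCGCCAAAtttctcccct
POLA1: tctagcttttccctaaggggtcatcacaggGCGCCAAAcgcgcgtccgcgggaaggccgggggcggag
E2F2: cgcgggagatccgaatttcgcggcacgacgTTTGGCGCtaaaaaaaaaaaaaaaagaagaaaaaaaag
E2F1: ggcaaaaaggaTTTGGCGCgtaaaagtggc

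These windows are chr12:132687343-132687371 (minus strand), chrX:24693751-24693818 (plus), chr1:23531238-23531305 (minus) and chr20:33686387-33686416 (minus), with matches that begin 18, 137, 42 and 20 bases before the start. A match stood in 9 of the 13 risen replication genes with a window, against 2.75% of all genes with a window and 4.7% of tested genes that were not called. Both motif searches were chosen with the gene lists' results known, and carry no test.

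Targets of p53 rose in 12 of 26 cases and fell in 2, with a median of 0.67 and KO library medians of 0.70, 0.58 and 0.74; 4 of the calls, 3 of them upward, held in every alternative. Ferredoxin reductase (FDXR) stood at 104, 117 and 122 CPM in wild type and 468, 394 and 620.1 CPM in KO libraries, with no overlap (1.98 ± 0.19, adjusted p = 5.09e-05). ZMAT3, an RNA-binding protein, went from 74.6, 53.5 and 62 CPM to 197, 173 and 119 CPM, TP53INP1 from 34, 35 and 35.7 CPM to 66.5, 63.5 and 82.4 CPM, and TP53I3 rose by 1.76 ± 0.29. The death receptors FAS (1.78 ± 0.38) and TNFRSF10A (1.14 ± 0.28) and their adaptor FADD (1.55 ± 0.30) rose, in a list of 33 apoptosis genes with 8 rises and 4 falls (median 0.49), none of which held in every alternative.

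Plasma proteins of hepatocytes fell in 14 of 43 tested cases and rose in 7, with a median of -0.70. Albumin (ALB) stood at 6941, 6834 and 6854 CPM in the wild type and 935, 888 and 1177 CPM in the KO libraries. The KO values lay close together, far from wild type, and the log2 fold change was -2.91 ± 0.21 (adjusted p = 8.75e-06). AHSG, fetuin A, fell from 8921, 9377 and 9319 CPM to 2324, 1498 and 3495 CPM (-2.06 ± 0.27), alpha-fetoprotein (AFP) from 5354, 5047 and 4524 CPM to 1266, 1274 and 2736 CPM (-1.64 ± 0.33) and the antimicrobial peptide LEAP2 from 108, 124 and 94.9 CPM to 24.2, 24.6 and 24.1 CPM (-2.29 ± 0.25). For AFP and AHSG the KO library 3 kept the highest value of its group. Hemopexin (HPX), the plasma haem carrier, rose from 2.37, 2.09 and 3.65 CPM to 13.9, 16.4 and 13.4 CPM (2.27 ± 0.34).

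Apolipoproteins and their partners fell in 8 of 16 cases and rose in 2 (median -0.96), with APOC1 (-1.81 ± 0.34), APOC3 (-1.62 ± 0.31) and APOA2 (-1.10 ± 0.22) among those that fell. Hepatocyte transcription factors split, with 5 of 22 higher and 3 lower (median 0.01). The xenobiotic receptor NR1I2 (PXR) rose from 2.11, 1.57 and 1.4 CPM to 12.5, 18.4 and 9.76 CPM (2.78 ± 0.39, adjusted p = 0.000613), and CYP3A5, a drug-metabolising cytochrome P450, from 2.37, 1.04 and 1.12 CPM to 13.9, 31.7 and 9.76 CPM. NR0B2 (SHP), a repressor of bile acid synthesis, fell from 171, 171 and 172 CPM to 12.5, 6.14 and 57.7 CPM, and PPARA by 1.07 on the log2 scale. In the list of bile acid and drug metabolism 6 of 16 rose and none fell (median 0.54). Epoxide hydrolase 1 (EPHX1) reached 62.4, 54.3 and 35.7 CPM in the KO libraries (2.23 ± 0.26), and ABCG2, a drug efflux pump, and ADH6, an alcohol dehydrogenase, rose by 1.56 ± 0.35 and 1.71 ± 0.34. In the list of amino acid and urea metabolism, 6 of 24 rose and 5 fell (median -0.22). HPD and FAH, which act in the breakdown of tyrosine, rose by 2.14 ± 0.38 and 1.90 ± 0.37, and MAT1A, which makes S-adenosylmethionine in liver, by 1.63 ± 0.30.

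Copper handling genes gave 4 rises and 2 falls among 18 tested (median -0.29), or 33.3% called, close to the 31.9% of all tested genes. Ceruloplasmin (CP), the plasma ferroxidase that ATP7B loads with copper, stood at 255, 239 and 233 CPM in the wild type and 105, 86 and 43.3 CPM in the KO libraries. The groups did not overlap, KO library 3 was the lowest, and the log2 fold change was -1.76 ± 0.29 (adjusted p = 0.00158), a call that held in every alternative. The copper importer SLC31A1 (CTR1) fell from 165, 153 and 156 CPM to 88.7, 75.8 and 132 CPM (-0.80 ± 0.20, adjusted p = 0.0109). It was not called with the 6 untreated libraries alone (adjusted p = 0.0778). STEAP3, a metalloreductase (1.78 ± 0.52), SCO1 and SCO2, which bring copper to cytochrome oxidase (0.63 ± 0.20 and 1.14 ± 0.40), and CCS, the copper chaperone of SOD1 (1.01 ± 0.33), rose. Each of the calls of SCO1, SCO2 and CCS was lost in 6 or more of the 16 alternatives, the fit of the 6 untreated libraries among them. The chaperone ATOX1 (-0.19 ± 0.29) and the enzyme SOD1 (-0.23 ± 0.18) were not called.

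Metallothioneins, which bind copper and zinc, gave 1 call among 10 tested (median -0.66). The result turned on KO library 3: without it 4 were lower and the median was -1.85, and without the libraries that stood apart the median was -0.04. MT2A stood at 835, 940.2 and 815 CPM in wild type and 60.3, 29.7 and 520.0 CPM in KO libraries, low in KO libraries 1 and 2 and nearer to wild type in library 3, for a log2 fold change of -2.25 ± 0.80 (adjusted p = 0.0481). That call held in 9 of the 16 alternatives and was lost in the fit of the 6 untreated libraries (adjusted p = 0.129). Without KO library 3 the value was -4.27. MT1E (121, 113 and 119.6 CPM against 10.4, 8.19 and 150.4 CPM) and MT1G (71.2, 63.2 and 79.5 CPM against 9.01, 8.19 and 75.1 CPM) were likewise low in KO libraries 1 and 2 only, and were not called. Without KO library 3, MT1G stood at -3.08 (adjusted p = 8.63e-05, edgeR). Metallothionein genes are close copies, so reads may be shared or lost between them. Of 18 zinc transporter genes 3 fell and none rose, or 16.7% called against 31.9% of all tested genes. The 3 were SLC39A6 (-1.04 ± 0.22), SLC39A14 (-0.83 ± 0.21) and SLC39A5 (-1.03 ± 0.29), and the zinc exporter SLC30A1 was not called (-0.13 ± 0.45).

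Iron genes fell in 6 of 17 cases and rose in 1 (median -0.39). The riser was SLC40A1, ferroportin, which exports iron, at 11.3, 8.36 and 12.9 CPM in wild type and 25.6, 36.9 and 41.2 CPM in KO (1.54 ± 0.25, adjusted p = 0.0014); it held in every alternative. Transferrin (TF) fell by 0.72 and its receptor TFRC by 0.57 on the log2 scale. Hepcidin (HAMP), the hormone that degrades ferroportin, had 35.3, 45.2 and 44.4 CPM and 6.24, 7.17 and 34.8 CPM and was not called (-1.38 ± 0.52, adjusted p = 0.0583).

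Of 42 tested autophagy genes 10 fell and 5 rose (median -0.15), or 35.7% called, near the 31.9% of all tested genes, and 7 of the lower and 3 of the higher calls held in every alternative. The cargo receptor SQSTM1 (p62) stood at 151, 149 and 165 CPM in the wild type and 808, 744 and 299 CPM in the KO libraries. It was higher in each KO library, least so in library 3, with a log2 fold change of 1.89 ± 0.36 (adjusted p = 0.00311). TOLLIP, an adaptor that links ubiquitin to LC3, followed the same order at 129, 149 and 155 CPM and 756, 817 and 255 CPM (1.98 ± 0.39). Other cargo receptors fell: NBR1 from 271, 272 and 254 CPM to 61.7, 58.4 and 119 CPM (-1.86 ± 0.28), optineurin (OPTN) from 180.3, 196 and 153 CPM to 84.5, 84 and 94.9 CPM (-1.13 ± 0.20) and CALCOCO2 (NDP52) by 0.89 on the log2 scale, while TAX1BP1 was not called (-0.17 ± 0.16).

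Of the core machinery, RB1CC1 (FIP200), the scaffold of the ULK1 kinase complex, fell from 139.7, 132 and 143 CPM to 69.3, 81.9 and 76 CPM with no overlap (-0.99 ± 0.16, adjusted p = 0.0014). ATG9A, the scramblase of autophagosome membranes (-0.93 ± 0.20), VMP1 (-0.94 ± 0.19) and WIPI1 (-1.11 ± 0.23) also fell, as did GABARAPL1 (-1.36 ± 0.29) of the LC3 family. ATG10, ATG16L1 and TECPR1 rose, ATG10 by 1.37 ± 0.34. The calls of ATG16L1 and TECPR1 held in 8 and 12 of the 16 alternatives. MAP1LC3B itself was not called: it had 59.8, 52.2 and 50.5 CPM in wild type and 21.5, 31.7 and 68 CPM in KO, where library 3 lay above and libraries 1 and 2 below wild type. ULK1, not called either, was at 2.08, 2.05 and 27.5 CPM in KO against 31.6, 27.9 and 30.3 CPM, with KO library 3 just under the wild type range. Genes of the lysosome gave 3 rises and 3 falls among 35 (median -0.55), with cathepsin A (CTSA) at 1491, 1239 and 712 CPM in KO against 334, 378 and 377 CPM (1.55 ± 0.27) and the cholesterol exporter NPC1 lower (-1.34 ± 0.26).

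Of 25 cytosolic heat shock genes 6 rose and none fell (median 0.39), or 24% called against 31.9% of all tested genes, and 4 of the 6 held in every alternative. Without KO library 3, 10 were higher and 7 lower. The rises were led by the co-chaperone DNAJA1 (42.7, 45.2 and 41.8 CPM in wild type, 219, 162 and 129 CPM in KO, 1.86 ± 0.24) and by HSPH1, an HSP110 (102, 103 and 91.2 CPM and 431, 413 and 295 CPM, 1.83 ± 0.25), with STIP1 (1.52 ± 0.29) and the ubiquitin ligase STUB1 (2.18 ± 0.44). No KO value of DNAJA1 or HSPH1 came near the wild type range. Among NRF2 targets and antioxidant genes 11 of 36 rose and 5 fell (median 0.08). Haem oxygenase 1 (HMOX1) went from 259, 264 and 296 CPM to 1369.7, 1173 and 617 CPM (1.84 ± 0.32, adjusted p = 0.00193), and glutathione transferase GSTA1 from 1.05, 2.35 and 3.65 CPM to 31.9, 25.6 and 24.1 CPM (3.39 ± 0.44). The peroxidase GPX2 rose (1.72 ± 0.35), and the mitochondrial superoxide dismutase SOD2 fell (-1.22 ± 0.20).

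The integrated stress response, by which phosphorylated eIF2 raises ATF4 targets, fell in 11 of 30 cases and rose in 2 (median -0.80; -1.47, -0.86 and -0.41 by KO library). DDIT3 (CHOP) stood at 37.7, 38.9 and 35.4 CPM in wild type and 4.85, 6.14 and 17.1 CPM in KO libraries (-1.99 ± 0.34), STC2 at 166, 154 and 172 CPM and 34.6, 28.7 and 70.2 CPM (-1.99 ± 0.32) and asparagine synthetase (ASNS) at 129, 152 and 136 CPM and 32.6, 26.6 and 74.5 CPM (-1.75 ± 0.33). KO library 3 was the nearest to wild type for all 3 genes, without overlap. Of 25 tested folding genes of the endoplasmic reticulum 10 fell and 2 rose (median -0.84), with ERO1A, an oxidase of disulphide bonds and a HIF target (-2.28 ± 0.28), and HERPUD1 (-2.21 ± 0.44) lower and SDF2L1 (1.48 ± 0.24) higher. Immediate early genes fell in 6 of 20 cases (median -0.94), among them the MAP kinase phosphatases DUSP6 (408, 419 and 366 CPM to 123, 136 and 110.2 CPM, -1.81 ± 0.20) and DUSP1 (-3.17 ± 0.64) and the AP-1 members FOSL2 (-1.95 ± 0.29) and JUN (-0.79 ± 0.17). None of the list rose. Of 30 proteasome genes 5 rose and 1 fell (median -0.17); the ATPase subunit PSMC1 stood at 2296, 2544 and 484 CPM in KO against 324, 298 and 359 CPM, far higher in libraries 1 and 2 than in library 3.

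Ribosomal protein genes were widely lower, mainly in KO libraries 1 and 2. Of 63 tested 41 fell and none rose (median -1.31), with KO library medians of -2.18, -2.20 and -0.58. They took 4.69%, 4.02% and 9.08% of the counts in the KO libraries and 10.9% to 11.8% in the wild type. Only 1 of these calls, RPS25 (742, 756 and 778 CPM and 173, 208 and 493 CPM, -1.52 ± 0.32), held in every alternative, and it was also the only one in the fit of the 6 untreated libraries alone. Without the libraries that stood apart 52 of the 63 were lower, with a median of -0.59. Nuclear-encoded genes of the respiratory chain fell in 10 of 50 cases and rose in 2 (median -0.78), none of them in every alternative; CYC1 fell (-1.89 ± 0.42), and cytochrome c (CYCS) rose, at 1272, 1566 and 212 CPM in KO against 164, 152 and 202 CPM. KO library 3 was close to the wild type for CYCS, and reads of its processed pseudogenes may be counted with it.

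Of 15 tested genes of the mitochondrial genome itself 7 rose and none fell (median 0.88; 0.50, 0.92 and 1.02 by KO library), and 4 held in every alternative. MT-ATP6 stood at 978, 816 and 1040.2 CPM in the wild type and 2360.4, 4063 and 3266 CPM in the KO libraries (1.66 ± 0.27, adjusted p = 0.00134). MT-ND1 went from 292, 275 and 292 CPM to 544, 574 and 734 CPM, and MT-CO3 from 2268, 1753 and 2586 CPM to 13817, 26532 and 6205 CPM. The KO libraries lay above all wild type libraries for the 3 genes. The nuclear RNAs rose beside them in part, with MALAT1 (1043, 1002 and 1169 CPM to 2399, 8124 and 2825 CPM, 1.95 ± 0.44) and TUG1 (0.96 ± 0.21) among the rises, in a list of 21 nuclear and small RNA genes with 7 rises and 5 falls (median 0.05). How far these shifts and the falls of ribosomal protein genes move with the depth or RNA quality of KO libraries 1 and 2 was not tested.

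Genes of matrix and adhesion changed in both directions, with 13 of 39 higher and 6 lower (median 0.03). Besides GPC3, galectin 3 (LGALS3) fell from 36.4, 38.9 and 42.1 CPM to 4.85, 1.02 and 12.2 CPM (-2.59 ± 0.42), whereas the tight junction protein claudin 2 (CLDN2) rose from 0.264, 0.522 and 0.842 CPM to 9.7, 10.2 and 5.49 CPM (3.67 ± 0.54) and the membrane metalloprotease MMP14 from 8.7, 11.8 and 11.2 CPM to 43.6, 50.2 and 33 CPM (1.86 ± 0.30). Of TGF-beta, YAP and mesenchymal genes 6 of 28 rose and 4 fell (median -0.08). CCN2 (CTGF), a matrix protein and YAP target, stood at 1153, 1182 and 1162 CPM in wild type and 45.7, 78.8 and 113 CPM in KO libraries, a log2 fold change of -4.00 ± 0.34 (adjusted p = 2.56e-05). The contractile genes TPM1 (1.28 ± 0.25) and TAGLN (1.60 ± 0.33) rose, so the list's members did not move as one. IGF and insulin genes fell in 7 of 21 cases and rose in 4 (median -0.36), with the insulin receptor substrate IRS1 lower (-1.69 ± 0.36) and IGF2R, which clears IGF2, higher (1.68 ± 0.36). IGFBP3 had 3 counts in the KO group, and its pooled ratio of wild type to KO was 25.1 (95% counting interval 8.43 to 123).

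Keratins and biliary markers rose in 7 of 11 cases and fell in none (median 0.99; 0.82, 1.12 and 0.15 by KO library). KRT19 stood at 151, 177 and 162 CPM in wild type and 304, 372 and 440.3 CPM in KO libraries (1.06 ± 0.18) and KRT23 at 5.54, 4.44 and 5.05 CPM and 15.2, 31.7 and 24.1 CPM (2.09 ± 0.33), in both cases higher in each KO library. SOX4 rose to 809.9, 913 and 234 CPM from 117, 117 and 121 CPM. EPCAM was called higher (1.01 ± 0.34), but KO library 3 lay within the wild type range, and without the libraries that stood apart the value was -0.20 with no call. Interferon targets rose in 6 of 17 cases and fell in 1 (median 0.64), with MX1 at 12.5, 16.4 and 8.54 CPM against 1.85, 1.31 and 1.4 CPM (2.81 ± 0.47), OAS3 (1.75 ± 0.31) and IRF1 (1.79 ± 0.38) higher and IFITM2 lower (-0.86 ± 0.18). NF-kappaB targets gave 3 rises and 2 falls among 14 (median 0.07), the falls being SOD2 and the chemokine CCL20 (55.6, 77.8 and 24.1 CPM to 0.693, 2.05 and 8.85 CPM). Of 13 genes of lipoylation and mitochondrial copper toxicity 1 fell, PDHB (-1.56 ± 0.45), and none rose (median -0.12).

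**Figure D3:**
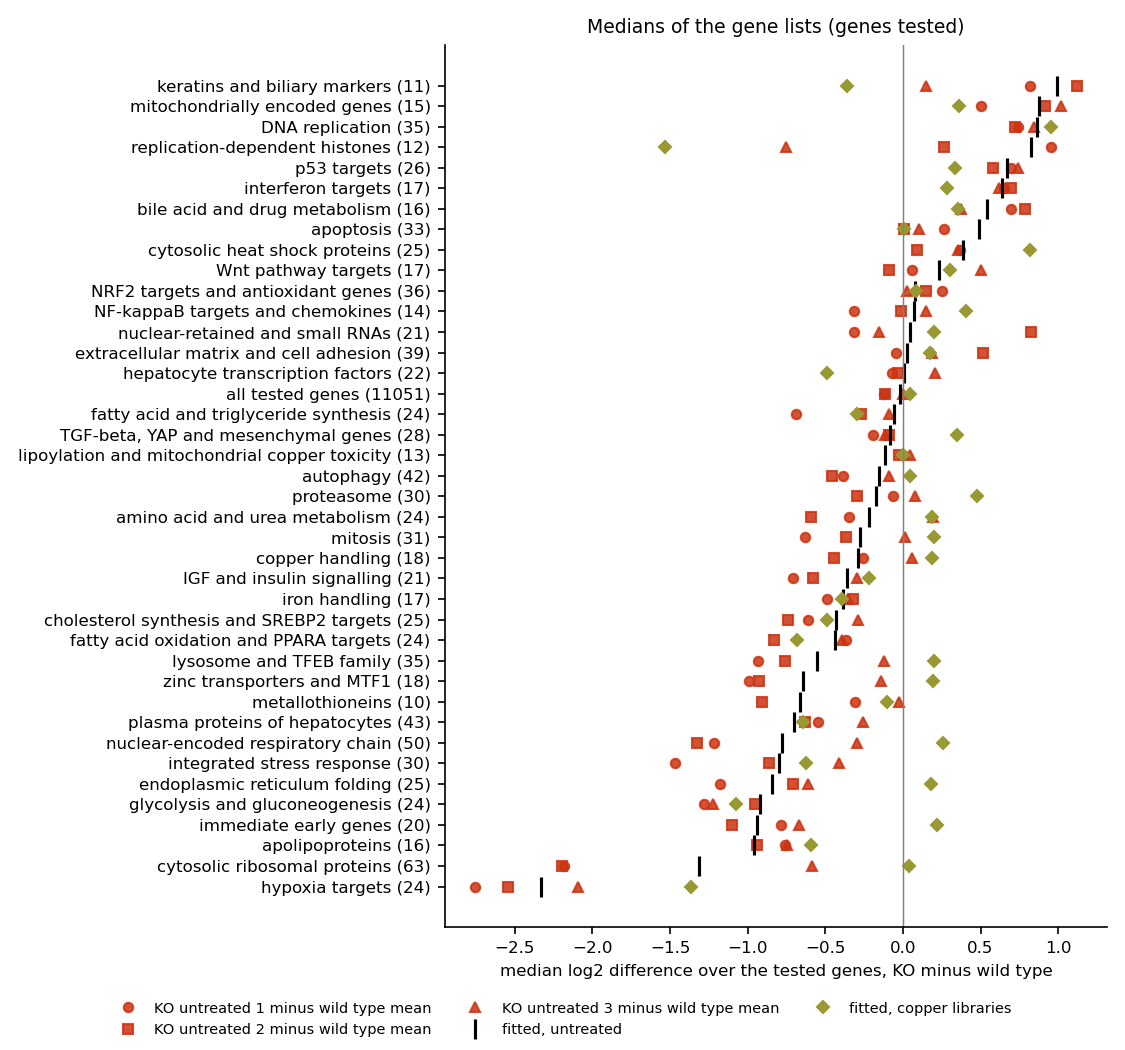
Median log2 difference, KO minus wild type, over the tested genes of each of 39 lists and over all tested genes, with the number of genes in brackets: red symbols are the 3 single KO libraries against the wild type mean, black bars the fitted untreated comparison and diamonds the fitted comparison in copper. Hypoxia targets lie lowest at -2.33, and KO library 3 lies nearer 0 than libraries 1 and 2 for ribosomal proteins (-0.58 against -2.18 and -2.20).

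Without the 3 libraries that stood apart, which leaves KO library 3 alone in its group and assumes that it varies like the others, the medians of 7 of 42 lists changed sign, but not those of the lists named next, and the counts shifted. Of the 11051 genes of the main comparison, 1918 were then called higher and 2096 lower. Hypoxia targets then had 22 lower and 1 higher call, glycolysis 20 lower and 1 higher, DNA replication 28 higher, p53 targets 15 higher and 3 lower, and mitochondrially encoded genes 13 higher. Autophagy genes had 13 lower and 5 higher calls, heat shock genes 10 higher and 1 lower, plasma proteins 18 lower and 3 higher, apolipoproteins 10 lower and 1 higher, NRF2 targets 12 higher and 9 lower, and the integrated stress response 12 lower and 4 higher. The median was -0.31 for respiratory chain genes, -0.15 for zinc transporters and -0.30 for cholesterol synthesis. That of keratins and biliary markers went from 0.99 to 0.15. Without KO library 3, 3156 of the 11051 genes were called higher and 3409 lower. Hypoxia targets then had 20 lower and 2 higher calls, and replication genes 19 higher and 3 lower. Respiratory chain genes had 34 lower and 2 higher, lysosome genes 20 lower and 5 higher, and zinc transporter genes 12 lower and 2 higher. In the fit of the 6 untreated libraries alone, which called 887 of these genes higher and 504 lower, 17 hypoxia targets and 11 glycolysis genes were called lower, and 11 replication genes and 7 p53 targets higher. In that fit no metallothionein, respiratory chain or iron gene was called lower.

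The same genotype difference was measured in the copper libraries, which share no library with the untreated comparison but were fitted in the same model. There 1525 genes (13.8%) were called, 638 (5.77%) higher and 887 (8.03%) lower, and the libraries did not overlap for 5121 (46.3%). Of these, 268 were higher and 415 lower in both media, and 32 were called in opposite directions. The shared calls made up 19.4% of the untreated and 44.8% of the copper calls, and the log2 fold changes of all tested genes correlated across genes at 0.325 (Pearson; genes are not independent replicates). By KO library, the difference from wild type correlated with the copper fold change at 0.07, 0.08 and 0.61 for libraries 1, 2 and 3, so that library 3 was the most like the copper comparison.

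Many leading differences stood in both media. The log2 fold change of GPC3 was -5.56 in copper, ALB -3.19, ALDOC -4.47. EGLN3 had 0.356, 0.419 and 0 CPM in KO against 13.9, 15.3 and 17.4 CPM in wild type, and BEX1 0.356, 0.419 and 1.19 CPM against 34.7, 34 and 34.5 CPM. RNF157 (5.55), PLA2G2A (5.13) and HBE1 (4.80) were higher there too. Hypoxia targets fell in 16 of 24 cases in copper (median -1.36), glycolysis genes in 13 of 24 (median -1.08), and DNA replication genes rose in 14 of 35 (median 0.95). Some lists had a median of the other sign in copper. Keratins and biliary markers had 2 lower and no higher calls (median -0.36). Folding genes of the endoplasmic reticulum had 1 lower and 2 higher (0.18), and immediate early genes 2 lower and 1 higher (0.22). Targets of p53 had 3 higher calls (median 0.33). The wild type copper library 1, which stood apart, was part of this comparison. Ribosomal protein genes, with 2 lower calls and a median of 0.04 in copper, and respiratory chain genes, with no call and a median of 0.26, had no call in the test of the difference between media.

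That test called 545 genes (4.93%). In 139 of them the log2 fold change was higher in copper, falls that were smaller there, such as that of BHLHE40, included. CCN2, at 157, 296 and 314 CPM in wild type and 301, 254 and 260.0 CPM in KO with copper, had no KO difference there (0.06 ± 0.30, adjusted p = 0.919), and the 2 KO effects differed (adjusted p = 0.00262). BHLHE40 fell more without copper (-4.22) than with it (-2.23, adjusted p of the difference 0.0343), as did PFKFB3 (-2.76 and 0.63, 0.00572) and DDIT3 (-1.99 and -0.09, 0.0403). SOX4 (2.36 and -0.88, 0.0227), GPX2 (1.72 and -1.06, 0.0228) and PROX1 (0.97 and -0.44, 0.0343) rose without copper and had negative values with it that were not called. The number of such genes ranged from 13 to 5882 with 1 untreated library left out, from 13 without wild type library 1 to 5882 without KO library 3.

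**Figure D4:**
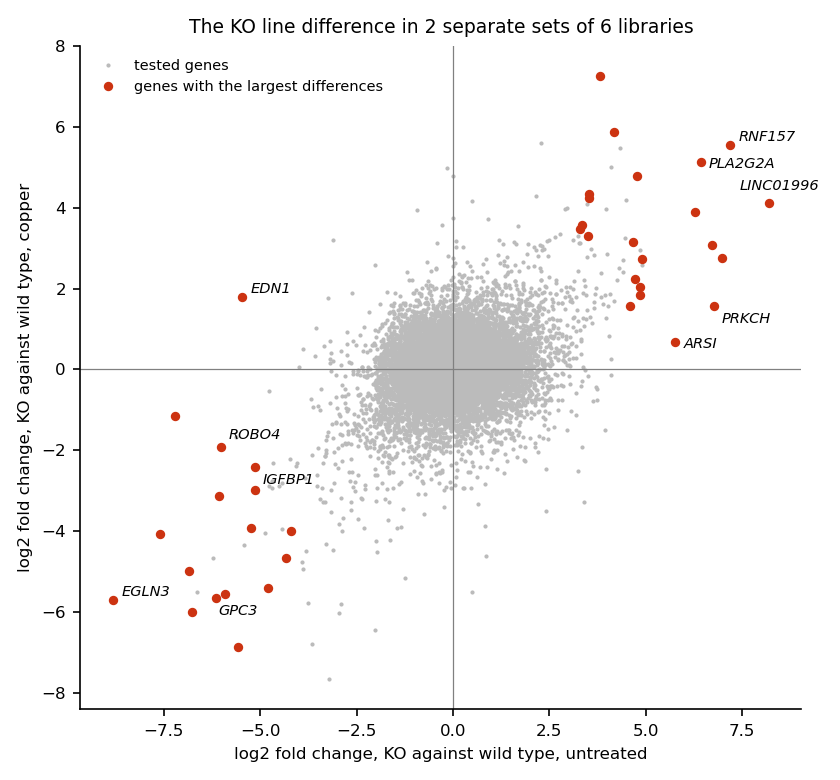
Log2 fold change of KO against wild type in the 6 copper libraries (vertical) against that in the 6 untreated libraries (horizontal) for the 11051 tested genes, with the genes of the largest differences in red; fitted values of genes with no count in a group depend on the fit's prior count. GPC3 lies at -5.93 and -5.56, and ALB at -2.91 and -3.19.

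By chromosome, the medians of the untreated fold changes lay between -0.16 and 0.15 except on chromosome 11. Its 644 tested genes had a median of 0.30, with 178 higher and 55 lower, and the copper comparison gave 0.33. Of all tested genes 17.9% were called higher and 14% lower. In KO libraries 1, 2 and 3 the medians were 0.07, 0.13 and 0.34, the highest of all chromosomes in libraries 2 and 3 and below chromosome 21 alone in library 1. Taken in 10 blocks of 63 neighbouring genes with a RefSeq symbol, the untreated median was highest in the sixth and seventh blocks, DPF2 to NDUFV1 (0.64) and NUDT8 to THAP12 (0.60), and lowest in the third, CCDC34 to KBTBD4 (0.09). The fitted median was above 0 in all 10, as was that of KO library 3, whereas KO library 1 was below 0 in 3 blocks and KO library 2 in 2, both of them in the tenth (-0.34 and -0.32).

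**Figure D5:**
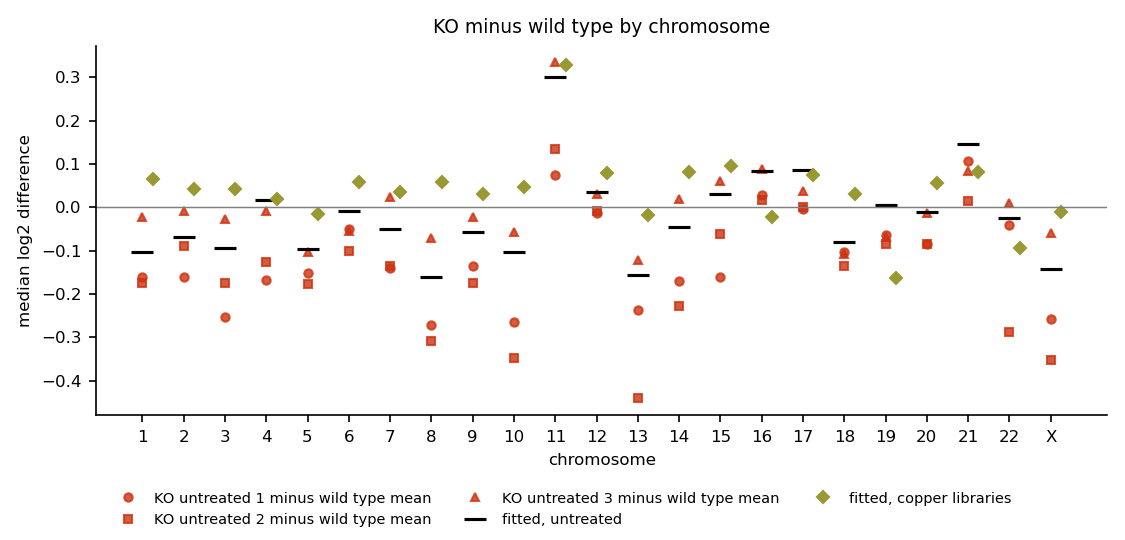
Median log2 difference, KO minus wild type, of the tested genes on each chromosome: red symbols are single KO libraries, black bars the fitted untreated comparison and diamonds the fitted copper comparison. Chromosome 11 stands highest in the untreated (0.30) and copper (0.33) comparisons.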

How the data were processed

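RNA was measured as 3' tag counts per gene in 12 HepG2 libraries, 3 for each combination of genotype (wild type or ATP7B KO) and medium (untreated or copper for 24 h). The authors deposited whole-number counts per gene, made with STAR 2.3.0, HTSeq and hg19, per the submitters' processing notes; the counting settings, strand use among them, are not stated there. No annotation of hg19 was used. The files gave Ensembl gene IDs, and symbols came from a reference of gene names or, failing that, from a GENCODE annotation. The chromosome of each gene was also taken from GENCODE. Of 47634 genes listed, 23424 had no count in any library, and the 45776 named genes held 99.5% of the counts.

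Counts were normalised by TMM, genes with low counts were filtered as edgeR's filterByExpr does, and the 11051 genes left were fitted in 1 model of the 4 groups with edgeR 4.0.16 (quasi-likelihood test, R 4.3.3; biological coefficient of variation 29.1%). P-values were adjusted by Benjamini-Hochberg over all tested genes, and an adjusted p under 0.05 was called. CPM values were computed from the counts and the library totals. In the shallowest to the deepest of the 6 untreated libraries, 3 counts correspond to 3.07 to 0.783 CPM, which limits what could be seen of low genes; intervals cover counting error only.

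The genes named were ATP7B, the 15 largest changes in each direction among called genes whose libraries did not overlap and whose mean reached 5 CPM in 1 group, the 10 largest in each direction called in both media, up to 4 members of each list with the smallest adjusted p, all metallothionein, copper handling and autophagy genes, and HMOX1, ALB, AFP, HAMP, SLC30A1, MALAT1 and NEAT1; the text prints part of them, and a few are not reported here. The members and gene lists were chosen with earlier results of these data known. Alternatives were DESeq2 1.42.0, limma 3.58.1 (voom, with and without library weights), RLE and upper quartile factors, no filter, a replicate block, counts thinned to 976658 per library, the 6 untreated libraries alone, each untreated library left out, and the 3 libraries that stood apart left out. The fit was also run on simulated counts with known changes, drawn with the same spread for all genes and libraries. That setting leaves out the differences among the KO libraries, so it cannot check the calls made here. Promoter windows and their coordinates are from RefSeq, GRCh38.p14, with 196 of 263 named genes matched by symbol.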

Additional observations from a re-analysis of the deposited data

Results flagged for a closer look

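For 4 of the genes with the largest differences, the KO effect differed between copper and untreated cells by the test of the difference itself (edgeR's quasi-likelihood test, Benjamini-Hochberg adjustment, n = 3 per group). Values are the KO effect in copper minus that without copper, on the log2 scale. EDN1, the vasoconstrictor peptide, differed by 7.26 ± 0.65 (SE derived from the F statistic, adjusted p = 0.000834). Its CPM values in copper were 2.67, 2.61 and 3.49 in the wild type and 10.3, 7.95 and 13.5 in the KO libraries. ROBO4 differed by 4.10 ± 0.68 (adjusted p = 0.019). In copper, ROBO4 had 14.9, 12.6 and 14.7 CPM in wild type and 4.27, 3.77 and 3.19 CPM in KO libraries. ARSI, an arylsulfatase, differed by -5.09 ± 0.98 (adjusted p = 0.0309), and PRKCH, a protein kinase C isoform, by -5.19 ± 1.30 (adjusted p = 0.0496). PRKCH had no count in the untreated wild type libraries and EDN1 and ROBO4 at most 2 in the untreated KO libraries, so the sizes of these 3 fitted differences depend on the prior count.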

How the results depend on the processing

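The number of genes called, 3521 in all, was 1421 with the 6 untreated libraries alone, 5971 by limma voom with library weights and 1840 after thinning, and 2058 to 6738 with 1 untreated library left out (the highest without KO library 3). The 1975 higher calls became 910, 1059 after thinning and 1152 to 3293 with 1 library left out. The 1546 lower calls became 511, 3077 with library weights, 781 after thinning and 906 to 3445 with 1 library left out. Higher calls made up 56.1% of all, 63.4% with upper quartile factors and 47.8% to 48.9% by voom, with library weights, without KO library 3 or without the libraries that stood apart. The 545 genes whose KO effect differed between media became 1841 by DESeq2, 139 by voom, 5461 with library weights, 2366 without the filter, 190 after thinning, 1050 without the libraries that stood apart and 13 to 5882 with 1 library left out. With the replicate block 3521 genes were called and 113 differed between media. Deviations of same-numbered untreated libraries from their group means correlated at -0.0425, -0.0978 and -0.176. With 3 libraries per group, and KO library 3 far from KO libraries 1 and 2, these values cannot decide whether the numbers pair libraries. The copper libraries were not checked for this. ATP7B stood at -1.10 without KO library 3 (adjusted p = 0.0411, edgeR), in a range of -1.10 to -0.40 with 1 library left out, at -1.17 with library weights (adjusted p = 0.0665, limma) and at -0.33 without the libraries that stood apart, and had no value after thinning. Without the libraries that stood apart EPCAM (-0.20), ATG12 (-0.54), PIK3C3 (-1.10) and WIPI2 (-0.36) changed sign; the cause was not tested.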
